A study of Mus musculus with 15 samples.

Results

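The 10 genes described here code for proteins that set the activity of the small GTPase Rap1: the cAMP-activated exchange factors Rapgef3 and Rapgef4, the other exchange factors Rapgef1, Rapgef2, Rapgef5 and Rapgef6, the GTPases Rap1a and Rap1b, the GTPase-activating protein Rap1gap and the effector Rassf5. They were taken by gene symbol from the 22524 gene identifiers of the count tables. They were selected on the read counts of these same libraries, with the D95N against wild-type difference already known, so their genotype values are a description and carry no test. All 10 were matched to a row, and all 10 passed the filter on low counts.

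Rap GTPases are switches that are on when bound to GTP and off when bound to GDP. Exchange factors load GTP, GTPase-activating proteins speed its hydrolysis, and effectors bind the loaded form. The Epac proteins are exchange factors that open when cAMP binds them, and so form a branch of cAMP signalling beside protein kinase A. In neurons, Rap signalling is known for roles in integrin and cadherin adhesion, in the shape of dendritic spines and in the removal of AMPA receptors from synapses, and Epac2, the product of Rapgef4, is the main Epac of the brain.

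RNA was sequenced from 15 female C57BL/6 mice, all 18 months old. The 7 D95N animals carried 1 copy of Rps9 with the D95N substitution and 1 wild-type copy; Rps9 is a protein of the small ribosomal subunit that bears on the accuracy of decoding. The 8 controls were wild-type littermates, and no treatment is named for either group. The labels name no promoter or Cre driver. Each library is labelled with its own animal number, so p-values measure the spread between these animals.

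The labels disagree on the tissue: the series design gives brain cortex, and the samples' own tissue entry gives skeletal muscle. The 5 pan-neuronal markers summed to 5200 to 5650 CPM, the library-scaled count, in the D95N libraries and 5270 to 5820 in wild type. The 5 skeletal muscle markers summed to 5.26 to 9.59 CPM and 6.45 to 24.7 CPM, and Ckm and Tnnt3 were at 0 in at least 1 library. Total counts per library ran from 23349381 to 34052037 in the 7 D95N libraries and from 28007441 to 34587082 in the 8 wild-type ones, and their means did not differ beyond that spread (two-sided exact permutation p = 0.14). Rps9 itself stood at 63.1 ± 6.13 CPM (SD, n = 7) against 65.3 ± 3.02 CPM (SD, n = 8), which does not check the genotype labels because the count tables do not separate the alleles.

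Rap1a and Rap1b code for closely related GTPases, and reads from one could in principle be assigned to the other. Their coding sequences are both 552 bases long in the GENCODE M21 annotation, match at 451 positions (81.7%), and share no identical run longer than 20 bases. The first 150 bases of each are shown 5′ to 3′ because they show how the pair can be told apart, with the 23 differing bases in capitals.
Rap1a-201: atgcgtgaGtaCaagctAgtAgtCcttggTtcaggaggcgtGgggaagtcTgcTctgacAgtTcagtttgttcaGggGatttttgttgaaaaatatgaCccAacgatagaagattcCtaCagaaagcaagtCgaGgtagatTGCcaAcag
Rap1b-201: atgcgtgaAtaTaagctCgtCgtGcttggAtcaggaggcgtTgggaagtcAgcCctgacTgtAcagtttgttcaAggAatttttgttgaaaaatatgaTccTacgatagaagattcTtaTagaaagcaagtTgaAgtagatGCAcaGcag
The differences are spread along the stretch. Neither read length nor the treatment of multi-mapping reads is given in the sources used here.

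Upstream windows of 250 bases were read from RefSeq promoter sequences (build GRCm38.p6) for 9 of the 10 genes, 17 windows in all, some of which overlap. The 4 windows shown are 1 each of Rapgef4, Rap1gap and Rassf5, which were higher in D95N libraries, and that of Rap1b. Rap1b is the gene with a full cAMP response element. Rap1gap has other windows, not shown, without the E-box or the half-site. The windows of Rapgef5, also higher in D95N libraries, are not shown. Capitals mark the motif letters found on either strand.
Rapgef4, chr2:71980965-71981214, + strand, GC boxes: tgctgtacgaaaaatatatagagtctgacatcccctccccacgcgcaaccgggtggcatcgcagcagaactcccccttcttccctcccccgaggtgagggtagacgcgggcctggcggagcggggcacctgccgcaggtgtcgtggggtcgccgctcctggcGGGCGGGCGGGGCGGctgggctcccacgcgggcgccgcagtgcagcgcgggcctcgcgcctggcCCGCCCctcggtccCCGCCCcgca
Rap1gap, chr4:137664476-137664725, + strand, E-box overlapping a cAMP response element half-site: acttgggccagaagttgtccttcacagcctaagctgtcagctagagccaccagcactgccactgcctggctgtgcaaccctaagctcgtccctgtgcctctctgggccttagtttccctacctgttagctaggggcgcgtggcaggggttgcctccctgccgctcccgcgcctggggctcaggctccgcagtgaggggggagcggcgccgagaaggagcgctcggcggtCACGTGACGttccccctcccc
Rassf5, chr1:131200186-131200435, - strand, GC box: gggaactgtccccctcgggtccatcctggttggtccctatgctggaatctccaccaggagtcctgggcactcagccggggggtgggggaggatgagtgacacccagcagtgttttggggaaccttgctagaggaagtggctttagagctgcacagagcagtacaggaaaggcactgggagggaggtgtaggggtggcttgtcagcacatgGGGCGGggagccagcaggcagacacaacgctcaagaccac
Rap1b, chr10:117845975-117846224, - strand, cAMP response element and GC boxes: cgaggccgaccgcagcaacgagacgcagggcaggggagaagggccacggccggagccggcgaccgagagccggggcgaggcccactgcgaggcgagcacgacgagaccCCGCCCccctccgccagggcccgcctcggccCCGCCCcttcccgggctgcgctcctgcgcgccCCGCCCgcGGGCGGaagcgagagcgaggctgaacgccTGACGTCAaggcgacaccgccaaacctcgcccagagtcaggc
The full cAMP response element TGACGTCA was found in 1 of the 17 windows, that of Rap1b, and in 1.55% of all 32851 windows of this length. Its half-site TGACG, which the full element contains, was found in 5 windows, of Rap1b, Rap1gap, Rapgef3 and Rapgef6, against 17.8% of all windows. The E-box CACGTG was found in 2 overlapping windows of Rap1gap, against 6.02% of all windows, and there the last bases of the E-box run into the half-site. The GC box GGGCGG was found in 10 windows, of Rap1b, Rap1gap, Rapgef3, Rapgef4, Rapgef5, Rapgef6 and Rassf5, against 32.7% of all windows. The Rap1gap windows with it overlap in part, so the same sites are counted more than once. Neither the AP-1 site TGANTCA nor the EGR site GCGNGGGCG was found in a window of these genes; 6.75% and 4.7% of all windows hold them. The Rassf5 window lies upstream of a start inside the gene, not at its outer end. Rap1a has no window here.

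In the wild-type libraries the genes spanned a wide range of levels, with the Epac2 gene Rapgef4 at the top and Rapgef6 at the bottom. The genes were chosen with the genotype difference known, and these wild-type counts are part of it. How the genes rank within wild type is another comparison. On the scale of CPM per kilobase of exon, Rapgef4 stood at 74.3 ± 2.29 (SD, n = 8), Rap1gap at 40.1 ± 2.28 and Rap1b at 25.5 ± 1.09. A middle group followed with Rapgef1 at 18.3 ± 0.671, Rapgef2 at 11.9 ± 0.41 and Rap1a at 9.45 ± 0.407. The lowest levels were those of Rassf5 at 7.77 ± 0.402, Rapgef3 at 6.14 ± 0.297, Rapgef5 at 5.52 ± 0.494 and Rapgef6 at 3.53 ± 0.106. So the most abundant activator and the most abundant inactivator of Rap1 among these genes were each above both GTPase genes per length.

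Each neighbouring pair in this order differed within libraries by a two-sided exact sign-flip permutation test over the 8 wild-type libraries. The pairs were set by sorting the means of these same libraries, so the p-values only describe how steady the order was between them. For 8 of the 9 pairs the higher gene was higher in 8 of 8 libraries, with an exact permutation p = 0.00781, the smallest the design allows, and a Benjamini-Hochberg adjusted p of 0.00879. Rapgef3 and Rapgef5 were closest, 1.11-fold apart, with Rapgef3 higher in 7 of 8 libraries (exact permutation p = 0.0234, adjusted p = 0.0234). Rapgef4 was 1.85-fold above Rap1gap, and Rap1gap was 1.57-fold above Rap1b. The order rests on the length used: with the longest annotated transcript in place of all exons, Rapgef2 stood above Rapgef1, which was at 21.2 CPM per kilobase, Rapgef5 moved up to 10.5 and Rassf5, at 8.91, fell below Rapgef3 at 9.25. The first 3 places and the last kept their genes.

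**Figure D1:**
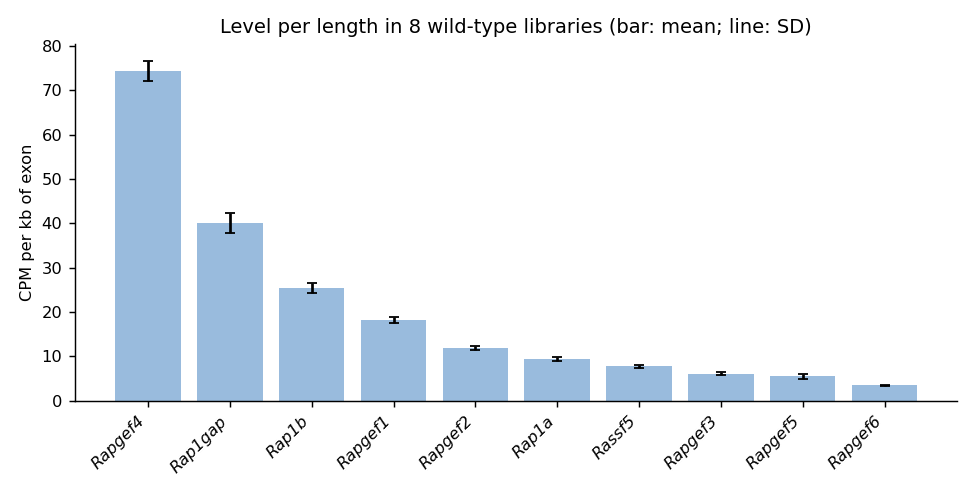
Bars give the mean level per length (y axis, CPM per kilobase of exon, linear from 0) of each gene (x axis) over the 8 wild-type libraries, and lines give the SD. Rapgef4 stands at 74.3 and Rapgef6, the lowest, at 3.53.

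Within wild type, no pair of these genes passed the test for varying together. Over the 8 libraries, 0 of 45 pairs reached an adjusted p below 0.05, and 5 did so before adjustment by Pearson's r and 4 by Spearman's rho, all by exact permutation. The strongest relation by Pearson's r was that of Rap1b and Rap1gap, with r = -0.89 (exact permutation p = 0.00677, adjusted p = 0.18) and rho = -0.74 (exact permutation p = 0.0458, adjusted p = 0.516; n = 8). Without the 2 libraries farthest from the median, r was -0.44. The strongest by Spearman's rho was that of Rapgef5 and Rap1a, with rho = -0.91 (exact permutation p = 0.00456, adjusted p = 0.205) and r = -0.78 (exact permutation p = 0.0226, adjusted p = 0.204; n = 8), and with r = -0.65 without the 2 farthest libraries. With so few libraries only very strong relations could have passed.

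Between genotypes, 4 of the 10 genes were higher in D95N libraries: the exchange factor genes Rapgef4 and Rapgef5, the GTPase-activating protein gene Rap1gap and the effector gene Rassf5. The GTPase genes themselves, Rap1a and Rap1b, and the other exchange factor genes stayed close to their wild-type levels. By edgeR's quasi-likelihood test with a Benjamini-Hochberg adjusted p below 0.05 over all tested genes, 4 were called higher, 1 was called lower and 5 were not called. Over all 14989 tested genes, 26.8% were called, 15.2% higher and 11.6% lower. Since the genes were chosen with this contrast known, nothing is read from their count. Their median log2 fold change was 0.05, beside -0.01 over all tested genes. In these bulk libraries, more or fewer cells that express a gene and more or less RNA per cell cannot be told apart.

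**Figure D2:**
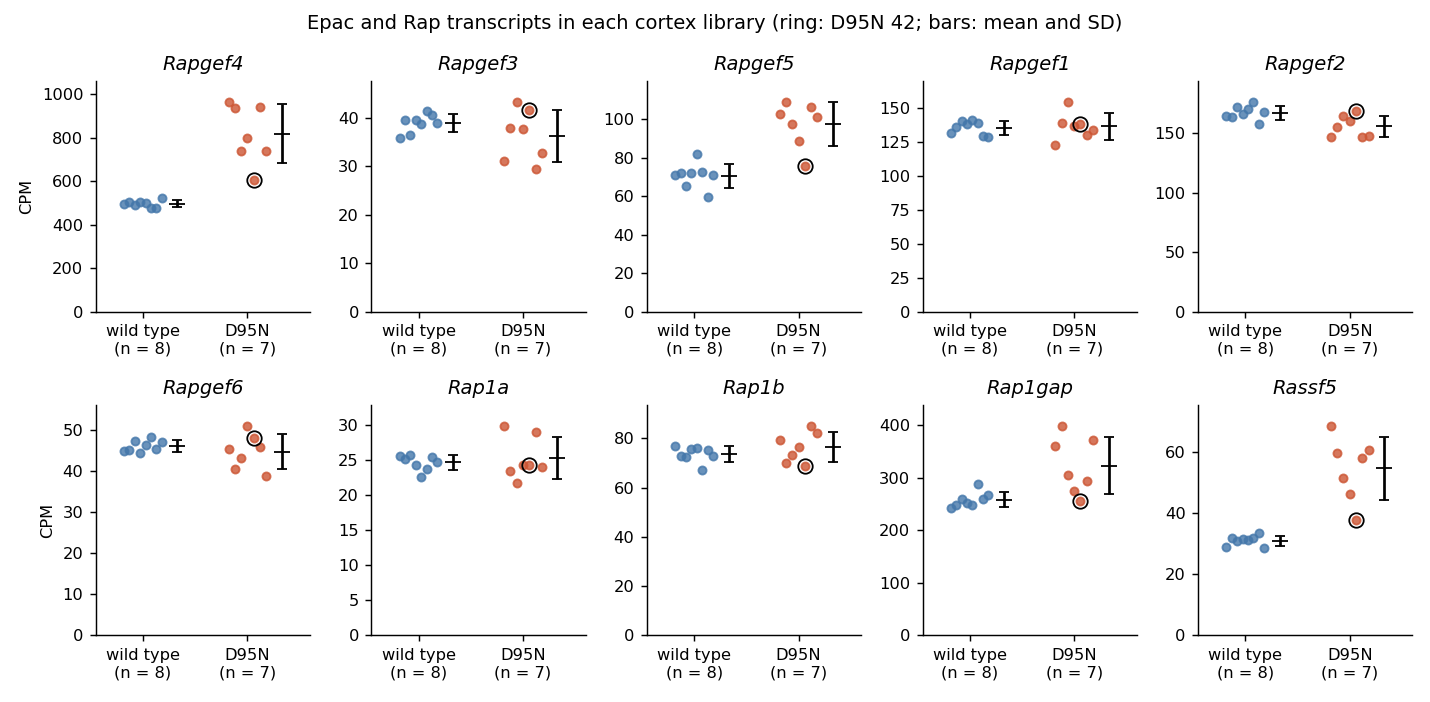
Each point is 1 library and each panel 1 gene, with CPM on a linear y axis from 0 and wild type (n = 8) beside D95N (n = 7); bars give the mean and SD, and rings mark D95N animal 42. Rapgef4 and Rassf5 show no overlap between genotypes, and the ring is at the lowest D95N value for Rapgef4, Rapgef5, Rap1gap and Rassf5.

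Rapgef4 (chr2:71981240-72257474, + strand, GRCm38), the gene of Epac2, ranged from 605.8 to 964.3 CPM in the 7 D95N libraries, with a median of 796.6. In the 8 wild-type libraries it ranged from 474.7 to 522.6 CPM, with a median of 499.6. Every D95N library was above every wild-type library, and the D95N libraries were far more spread out. The means were 818 ± 135 CPM (SD, n = 7) and 496 ± 15.3 CPM (SD, n = 8), a log2 fold change of 0.72 ± 0.08 (SE), or 1.65-fold. Of all tested genes, 1.81% had every D95N library above every wild-type library, and 1.47% had every one below. An antisense gene, Rapgef4os2, overlaps an exon of Rapgef4, and since no source used here gives the strand setting of the counting, reads from the pair cannot be told apart there.

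Rapgef3 (chr15:97744770-97767972, - strand), the gene of Epac1, the more widely expressed cAMP-activated exchange factor, ranged from 29.4 to 43.3 CPM in D95N libraries (median 37.7) and from 35.9 to 41.4 CPM in wild type (median 39.3). The D95N libraries lay on both sides of the wild-type range, 2 above it and 3 below it. The log2 fold change was -0.10 ± 0.07 (SE) and was not called. Exons of Rapgef3 are overlapped by the antisense genes Rapgef3os1 and Rapgef3os2, with the same limit. Per kilobase of exon, the ratio of Rapgef4 to Rapgef3 was 12.1 ± 0.787 (SD, n = 8) in wild type, from 10.9 to 13.1. It was 22.1 ± 6.22 (SD, n = 7) in D95N libraries, from 13.8 to 30.5, so the lowest D95N ratio was just above the highest wild-type ratio.

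Rapgef5 (chr12:117516479-117759737, + strand), an exchange factor that does not depend on cAMP and also binds M-Ras, ranged from 75.9 to 108.9 CPM in D95N libraries (median 100.9). In wild type it ranged from 59.8 to 81.7 CPM (median 71.5). Of the 7 D95N libraries, 6 were above the whole wild-type range and animal 42 was inside it. The means were 97.3 ± 11.4 CPM (SD, n = 7) and 70.6 ± 6.31 CPM (SD, n = 8), a log2 fold change of 0.46 ± 0.07 (SE), or 1.38-fold.

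Rapgef1 (chr2:29619720-29740978, + strand) codes for the exchange factor that Crk adaptors bring to the membrane. It ranged from 122.5 to 154.4 CPM in D95N libraries (median 136.4) and from 128.9 to 140.8 CPM in wild type (median 137.1). The groups overlapped, with 1 D95N library above and 1 below the wild-type range, and the log2 fold change was 0.01 ± 0.04 (SE). A pseudogene, Gm9823, overlaps its exons on the other strand.

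Rapgef2 (chr3:79062516-79286517, - strand) and Rapgef6 (chr11:54522847-54699285, + strand) code for related exchange factors that carry a PDZ domain. Rapgef2 ranged from 146.7 to 168.7 CPM in D95N libraries (median 155.0) and from 157.3 to 176.1 CPM in wild type (median 166.6). Of the D95N libraries, 4 were below the wild-type range and the rest were inside it, with animal 42 highest. Its log2 fold change of -0.10 ± 0.04 (SE), called lower, was the same size as that of Rapgef3, and the call was kept in 7 of 26 alternative settings. Rapgef6 ranged from 38.7 to 51.0 CPM in D95N libraries (median 45.4) and from 44.3 to 48.2 CPM in wild type (median 45.7), with a log2 fold change of -0.04 ± 0.05 (SE). Again the D95N libraries spread to both sides, 1 above and 3 below the wild-type range.

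The GTPase genes came next. Rap1a (chr3:105727267-105801336, - strand) ranged from 21.7 to 29.9 CPM in D95N libraries (median 24.3) and from 22.6 to 25.7 CPM in wild type (median 24.9). Rap1b (chr10:117813871-117846035, - strand) ranged from 68.9 to 85.1 CPM in D95N libraries (median 76.3) and from 67.0 to 77.0 CPM in wild type (median 73.9). The genotypes overlapped for both. For Rap1a 2 D95N libraries were above the wild-type range and 1 was below it, and for Rap1b 3 were above and 0 below. Their log2 fold changes were 0.04 ± 0.06 (SE) and 0.05 ± 0.05 (SE), and neither was called. With a correction for GC content and length, both were called higher, at 0.13 and 0.14 on the log2 scale. Per kilobase of exon, Rap1b stood at 2.7 ± 0.16 times Rap1a in wild type (SD, n = 8) and 2.75 ± 0.253 times in D95N libraries (SD, n = 7).

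Rap1gap (chr4:137664726-137729861, + strand), whose product switches Rap1 off, ranged from 255.2 to 398.6 CPM in D95N libraries (median 304.4). In wild type it ranged from 241.9 to 288.2 CPM (median 255.2). Of the D95N libraries, 5 were above the wild-type range, and animals 41 and 42 were inside it. The means were 322 ± 54.0 CPM (SD, n = 7) and 258 ± 14.7 CPM (SD, n = 8), a log2 fold change of 0.32 ± 0.08 (SE), or 1.25-fold. In animal 42, Rap1gap stood at 98.9% of its wild-type mean.

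Rassf5 (chr1:131176410-131245258, - strand), also known as RAPL or NORE1, codes for a Ras-association protein that binds loaded Rap1 and the MST kinases. It ranged from 37.8 to 68.7 CPM in D95N libraries (median 58.1) and from 28.7 to 33.5 CPM in wild type (median 31.4). Every D95N library was above every wild-type library, as for Rapgef4. The means were 54.7 ± 10.3 CPM (SD, n = 7) and 31.1 ± 1.61 CPM (SD, n = 8), a log2 fold change of 0.82 ± 0.09 (SE), or 1.76-fold, the largest of the 10 genes. Its exons share a short stretch with Eif2d on the other strand.

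Among the 4 higher genes, D95N animal 42 kept its place from gene to gene, and others changed theirs. Animal 42 was the lowest of the 7 for 4 of 4 genes, with a mean over the genes of 113% of the wild-type mean. Animals 4 and 21 shared the highest values, each for 2 genes, with means of 175% and 173%. The other animals lay between, at 160% for animal 44, 158% for animal 50, 143% for animal 28 and 136% for animal 41. Animal 44 stood at 190% for Rapgef4 but at 114% for Rap1gap, and animal 50 at 149% for Rapgef4 but at 196% for Rassf5. These values share their libraries and normalization factors. Over all tested genes, 33.1% were called without animal 42, the highest share with any library left out, beside 26.8% with every library kept. Whether its place is particular to these genes was not tested.

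**Figure D3:**
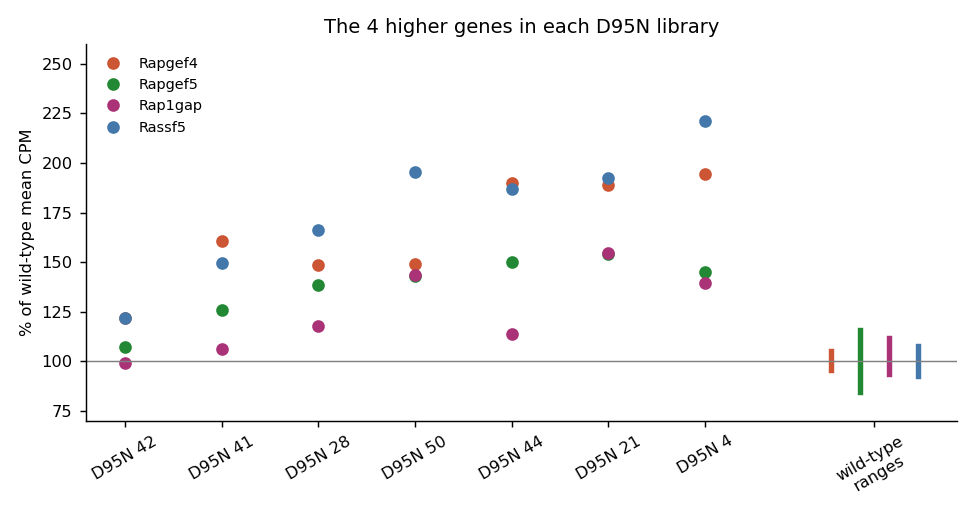
Points give each gene's level in each D95N library (x axis, ordered by mean) as a percent of its wild-type mean (y axis, linear), and the vertical lines at the right give the wild-type range of each gene. Animal 42 is lowest for all 4 genes, with a mean of 113%, and animal 4 has the highest mean, 175%.

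The spread was larger among D95N libraries for all 10 genes, as it was for 83% of all tested genes. The coefficient of variation of Rapgef4 was 16.5% in D95N libraries and 3.08% in wild type, and that of Rassf5 was 18.7% and 5.17%. For Rapgef3, which was not called, it was 14.6% and 4.84%.

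Markers of several other cell types were called lower in the same fit. Of the red blood cell markers, 5 of 5 were called lower, summing to 36 to 148 CPM in D95N libraries and 73.6 to 286 CPM in wild type. Of the 8 meningeal fibroblast markers, 3 were called lower (Slc6a13, Slc22a6 and Ogn, named after their values were seen), with sums of 44.6 to 80.7 CPM and 66.3 to 107 CPM. Of the 8 endothelial markers, 2 were called lower (Tek and Ly6c1, likewise), with sums of 193 to 245 CPM and 207 to 321 CPM. Of the 5 mural cell markers, 3 were called lower (Kcnj8, Acta2 and Myh11, likewise), with sums of 125 to 195 CPM and 140 to 168 CPM. Of the 5 astrocyte markers, 2 were called lower (Gja1 and Slc1a3, likewise), with sums of 2990 to 3800 CPM and 3510 to 3700 CPM. No marker of these 5 lists was at 0 in any library.

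Neuronal and other glial lists were as follows. Of the 9 striatal neuron markers 4 were called lower, with sums of 703 to 1510 CPM in D95N libraries and 833 to 1300 CPM in wild type, and none was at 0. Of the 5 pan-neuronal markers Stmn2 was called higher and Syt1 lower. Of the 4 cerebellar granule cell markers 3 could be tested and Cbln3 was called lower. Cbln3 stood at 0.453 ± 0.202 CPM (SD, n = 7) in D95N libraries and 3.41 ± 8.18 CPM (SD, n = 8) in wild type. Its wild-type SD was larger than its mean, so the call can rest on very few libraries. The 4 markers summed to 25.8 to 37.7 CPM in D95N libraries and 28.1 to 87.4 CPM in wild type. Gabra6 was at 0 in at least 1 library. Of the 5 oligodendrocyte precursor markers Sox10 was called higher, with sums of 277 to 292 CPM in D95N libraries and 266 to 299 CPM in wild type. These single genes, too, are named after their values were seen. Of the 5 microglia markers 0 were called by edgeR, DESeq2 or limma-voom and 2 had an unadjusted edgeR p below 0.05, with sums of 285 to 392 CPM in D95N libraries and 346 to 405 CPM in wild type. Of the 5 oligodendrocyte markers 0 were called by any of these tools and 1 had an unadjusted edgeR p below 0.05, with sums of 5330 to 6930 CPM and 5860 to 7170 CPM. Of the 5 choroid plexus markers 0 were called by any of these tools and 0 had an unadjusted edgeR p below 0.05, with sums of 197 to 1140 CPM and 275 to 1060 CPM. Of the 5 skeletal muscle markers 3 could be tested, and 0 were called by any of these tools or had an unadjusted edgeR p below 0.05. Apart from the marker scores put into the fit below, the part of these lists in the results was not tested.

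With the red blood cell and meningeal scores as covariates, the log2 fold changes were 0.51 ± 0.14 (SE) for Rapgef4, 0.63 ± 0.17 for Rassf5, 0.26 ± 0.11 for Rapgef5 and 0.08 ± 0.14 for Rap1gap. None of the 4 was called there, in a fit that called 0.06% of all genes. With the endothelial score, Rapgef4 was at 0.71, Rassf5 at 0.84, Rapgef5 at 0.42 and Rap1gap at 0.28 ± 0.10, the last of them not called. With the striatal score all 4 were called, Rap1gap at 0.42 ± 0.07.

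The rest of the pathway was covered by 8 lists with 83 genes, of which 81 were tested. Of these, 19 were called higher, 8 lower and 54 not called, so 33.3% were called, beside 26.8% of all tested genes. Scaled by library totals the split was 16 higher and 13 lower, and with upper-quartile factors 17 and 13. The named genes and their adjusted p-values below come from edgeR with Benjamini-Hochberg adjustment over all tested genes, and all of these calls were lost with the red blood cell and meningeal scores in the fit.

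**Figure D4:**
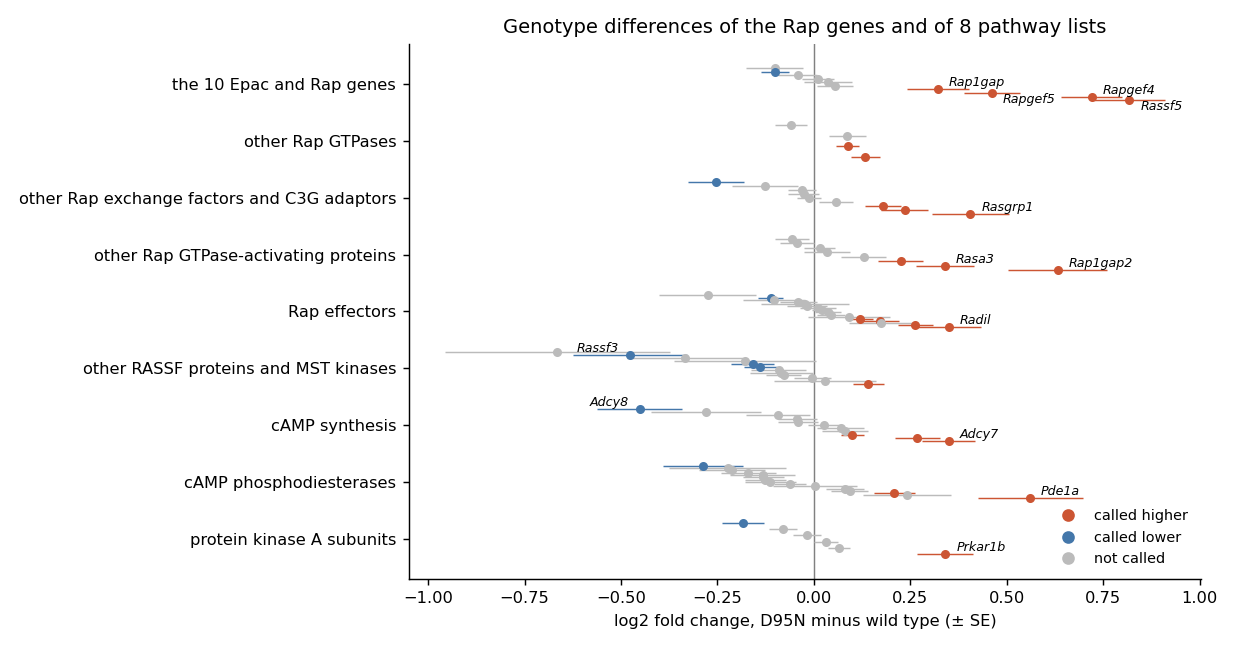
Each point is 1 gene at its log2 fold change of D95N against wild type (x axis, lines give the SE), sorted by list (y axis) and coloured by its call in edgeR. Most pathway genes lie near 0, with Rap1gap2 at 0.63 and Pde1a at 0.56 at the higher end and Rassf3 at -0.48 and Adcy8 at -0.45 among those called lower.

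Among the other Rap GTPases and the GTPase chaperone Rap1gds1, 2 of 4 genes rose and 0 fell, with a median log2 fold change of 0.09. Rap2a, a Rap of a separate branch, rose by 0.13 ± 0.04 (SE, edgeR adjusted p = 0.0153), with 4 of 7 D95N libraries above the wild-type range. Rap1gds1 rose by 0.09 ± 0.03 (SE, edgeR adjusted p = 0.035), and this call was lost in 11 of 26 alternative settings.

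Of 9 other exchange factors and adaptors of Rapgef1, 3 rose and 1 fell, with a median of -0.01. Rasgrp1, an exchange factor driven by calcium and diacylglycerol that acts mainly on Ras, ranged from 549.0 to 963.0 CPM in D95N libraries and from 530.0 to 648.1 CPM in wild type. It rose by 0.41 ± 0.10 on the log2 scale (SE, edgeR adjusted p = 0.00654). Its relative Rasgrp2, which acts on Rap1 in platelets and striatal neurons, fell by 0.25 on the log2 scale (SE 0.07, edgeR adjusted p = 0.0174), and with the striatal score in the fit it was no longer called, at -0.20 (edgeR adjusted p = 0.0629). Plce1, a phospholipase with an exchange domain, rose by 0.24 ± 0.06 (SE), and Bcar1, the Crk-binding scaffold, by 0.18 ± 0.05 (SE). Of the 7 D95N libraries, 4 were above the wild-type range for Rasgrp1 and 4 below it for Rasgrp2.

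Of 8 other GTPase-activating proteins of Rap, 3 rose and 0 fell, with a median of 0.08. Rap1gap2, the closest relative of Rap1gap, ranged from 258.7 to 567.7 CPM in D95N libraries (median 400.4) and from 236.0 to 283.7 CPM in wild type (median 256.1). Of the D95N libraries 6 were above the wild-type range, and the gene rose by 0.63 ± 0.13 on the log2 scale (SE, edgeR adjusted p = 0.00223). Rasa3, which acts on Ras and Rap, rose by 0.34 ± 0.07 (SE, edgeR adjusted p = 0.00339). Sipa1l3, of the spine-associated Rap GTPase-activating family, rose by 0.23 ± 0.06 (SE, edgeR adjusted p = 0.00987).

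Of 16 Rap effectors, 4 rose, 1 fell and 11 were not called, with a median of 0.03. Rundc3a, a neuronal protein that binds Rap2, ranged from 276.7 to 349.9 CPM in D95N libraries and from 261.0 to 271.1 CPM in wild type. All 7 D95N libraries were above the wild-type range, and the rise was 0.26 ± 0.04 on the log2 scale (SE, edgeR adjusted p = 0.000769). Radil, a Rap1 effector in adhesion, rose by 0.35 ± 0.08 (SE), Mink1, a kinase that binds Rap2, by 0.17 ± 0.05 (SE), and Rgl1, an exchange factor for Ral, by 0.12 ± 0.03 (SE). The gene that fell, at -0.11 ± 0.03 (SE), was Afdn, which codes for the junction protein afadin and is named here after its values were seen.

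Of 12 other RASSF proteins and MST kinases, the family and partners of Rassf5, 1 rose and 3 fell, with a median of -0.12. Rassf3 ranged from 22.9 to 52.1 CPM in D95N libraries and from 39.5 to 52.4 CPM in wild type. It fell by 0.48 on the log2 scale (SE 0.15, edgeR adjusted p = 0.0245). Of the D95N libraries, 5 were below the wild-type range. Sav1, the scaffold of the MST kinases, fell by 0.14 on the log2 scale (SE 0.04), a call lost in 7 of 26 alternative settings, and Rassf2 fell by 0.16 (SE 0.06), a call lost or reversed in 16 of 26 alternative settings. Rassf8 rose by 0.14 ± 0.04 (SE, edgeR adjusted p = 0.0165). The count of 3 lower genes was 0 without D95N animal 21, 1 without D95N animal 4, D95N animal 44 or wild-type animal 32, 5 without D95N animal 42, 5 with the striatal score and 0 with the endothelial score. Rassf5, at 0.82, was above every called gene of its own family, but it was chosen with this contrast known, so nothing is read from its place.

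Of 11 tested genes of cAMP synthesis, 3 rose and 1 fell, with a median of 0.03. Adcy7 rose by 0.35 ± 0.07 (SE, edgeR adjusted p = 0.00187) and Adcy3 by 0.27 ± 0.06 (SE, edgeR adjusted p = 0.00338), each with 6 of 7 D95N libraries above the wild-type range. Both code for adenylyl cyclases, the enzymes that make cAMP. Gnas, the stimulatory G protein subunit, rose by 0.10 ± 0.03 (SE, edgeR adjusted p = 0.0199). Adcy8, a calcium-stimulated cyclase, had a median of 19.4 CPM in D95N libraries and 30.5 CPM in wild type, and 6 of 7 D95N libraries were below the wild-type range. It fell by 0.45 on the log2 scale (SE 0.11, edgeR adjusted p = 0.00662).

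Of 15 tested phosphodiesterases that break down cAMP, 2 rose, 1 fell and 12 were not called, with a median of -0.11. Pde1a, which calcium and calmodulin activate, ranged from 218.1 to 525.5 CPM in D95N libraries and from 210.6 to 302.2 CPM in wild type, and rose by 0.56 ± 0.14 on the log2 scale (SE, edgeR adjusted p = 0.00641). Pde4a, a cAMP-specific enzyme, rose by 0.21 ± 0.05 (SE, edgeR adjusted p = 0.00905), with 7 of 7 D95N libraries above the wild-type range. Pde10a, an enzyme of striatal neurons, fell by 0.29 on the log2 scale (SE 0.10, edgeR adjusted p = 0.0475). This call was lost in 17 of 26 alternative settings. Of 9 striatal markers, 4 were called lower and 5 were not called. The most abundant of them, Ppp1r1b and Penk, were at 0.39 and 0.20 and not called. With the striatal score in the fit, Pde10a was no longer called, at -0.12 ± 0.07 (SE, edgeR adjusted p = 0.184). Why its fold changed with that score was not tested. The count of 1 lower phosphodiesterase gene was 0 to 3 when 1 library was left out. With library totals or upper-quartile factors, 5 phosphodiesterase genes were lower.

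Of the 6 protein kinase A subunits, the other main receptor of cAMP, 1 rose and 1 fell. Prkar1b, a regulatory subunit of neurons, ranged from 780.4 to 1174 CPM in D95N libraries and from 780.8 to 867.2 CPM in wild type, and rose by 0.34 ± 0.07 on the log2 scale (SE, edgeR adjusted p = 0.00295). Prkar2b, another regulatory subunit, fell by 0.18 on the log2 scale (SE 0.05, edgeR adjusted p = 0.0199). The median of the 6 was 0.01, and the other 4 subunit genes were not called.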

How the data were processed

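Gene expression was measured by RNA sequencing in 7 D95N and 8 wild-type libraries. Groups were taken from the genotype labels, which give no batch. Each sample has 1 deposited table of raw read counts by Ensembl gene. STAR, featureCounts and the GRCm38 build are named in the submitters' processing notes. Tool versions, annotation, strand setting and multi-mapping treatment: not given in the sources used here. Of 22524 identifiers, 22291 matched GENCODE M21 and 233 did not. Pde2a was not matched and was not analysed here.

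Counts were tested with edgeR 4.0.16 (R 4.3.3) over all genes: TMM factors, filterByExpr, a model with genotype alone, the quasi-likelihood test and Benjamini-Hochberg adjustment at 0.05. Each SE was taken from the log2 fold change and the square root of its F statistic. CPM were computed here with TMM factors from the deposited counts. The fit was tested on counts simulated with the same spread in both genotypes. That setting lacks the larger spread among D95N libraries, seen for 83% of all tested genes. Levels per length used the union of annotated exons, with exact tests in Python 3.11.15 and scipy 1.17.1. Alternatives were other scaling (library totals, upper quartile, RLE), DESeq2 1.42.0, limma 3.58.1 (voom), no filter, marker scores as covariates and each library left out. A GC and length correction, and leaving out the 2 shallowest libraries, were added after seeing the data.

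The genes, the pathway and marker lists and the tests were chosen with earlier results of these data known. Named genes are the 10 described genes, Rps9, and up to 4 called genes of smallest p in each pathway list. The rule also allows the most abundant markers of a list, which was used for Ppp1r1b and Penk alone. Other exceptions are named in the text. The result of 1 marker list is not reported here.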

Additional observations from a re-analysis of the deposited data

Results flagged for a closer look

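In 2 of the 74 groups of values looked at (each gene in each genotype), 1 library stood apart by Dixon's gap, the distance to the nearest library divided by the whole range. Chance flags about 1 in 20 groups. Rap1b in wild-type animal 30 was lowest at 67 CPM, the nearest library being at 72.5 CPM, a gap of 0.546 of the range, above the critical value for 8 libraries. Rps9 in wild-type animal 24 was lowest at 58.4 CPM, the nearest being at 64.4 CPM, a gap of 0.637 of the range.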

How the results depend on the processing

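Over 59 results and 1493 alternative values, 1281 were counted as the same. These folds kept their side of the threshold, and these counts stayed within the limit. A fold that changed sign while called in neither fit was also counted as the same, such as Rapgef1 at -0.06 with GC and length correction. Of the rest, 120 lost a call, 2 gained one, 1 reversed and 89 counts or values moved. The 4 higher genes stayed called without any 1 library, over log2 ranges of 0.68 to 0.78 for Rapgef4, 0.76 to 0.89 for Rassf5, 0.43 to 0.51 for Rapgef5 and 0.27 to 0.37 for Rap1gap. With the red blood cell and meningeal scores in the fit, 0 of the 10 genes were higher and 0 lower by edgeR. Of the pathway genes, 0 were higher and 0 lower. Rassf2, the 1 value counted as reversed, was near 0 there, at 0.0139 ± 0.0839 (SE), and was not called. The cause was not tested. The 1 lower gene, Rapgef2, was not called (0 lower) with RLE factors, no filter, the striatal score, the endothelial score, the GC and length correction or without the 2 shallowest libraries (D95N animals 50 and 28), and leaving out 1 library gave 0 to 1. Pathway genes called higher, 19 in all, were 9 with the endothelial score. Those called lower, 8 in all, were 13 with library totals, 13 with upper-quartile factors, 2 with the endothelial score and 5 without the 2 shallowest libraries. Leaving out 1 library gave 5 to 10, the 5 without D95N animal 4 or 44. No paired analysis was run, and the sample titles name no litter by which littermates could be paired. The lowest count of any of the 10 genes in a library was 528, for Rap1a in D95N animal 28.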
